A study of Mus musculus with 6 samples.

Results

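The 10 genes described here encode the constant regions of mouse antibodies: the heavy-chain genes Ighm, Ighd, Ighg1, Ighg2b, Ighg2c, Ighg3 and Igha, the kappa light-chain gene Igkc and the lambda light-chain genes Iglc1 and Iglc2. They were taken by symbol from a table of read counts for 54532 genes, in which 13 genes carry the annotation of an immunoglobulin constant-region gene. The rule that picks them reads the symbol alone. RNA was sequenced from PBS-perfused whole lungs of untreated mice at 2 months of age, with 3 WT C57BL/6J replicates and 3 replicates labelled ISM1-/-, which lack isthmin-1 by design and were bred on the C57BL/6J background. The study asked how the resting lung transcriptome differs in the absence of this secreted protein. Because the WT mice came from a supplier and the ISM1-/- mice from an in-house colony, genotype and origin of the mice cannot be told apart. The study calls the libraries biological replicates, and nothing in the labels says whether each came from a separate animal, so the p-values measure only the spread between these samples.

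The constant region of the heavy chain defines the class of an antibody. Naive B cells carry IgM and IgD on their surface, both made from the same primary transcript, which runs from the variable region through Ighm and Ighd. After activation, class switch recombination can join the variable region to a downstream Ighg, Ighe or Igha gene, and the cell then makes IgG, IgE or IgA. B cells that become plasma cells secrete large amounts of antibody and hold very high levels of immunoglobulin mRNA. IgA is the main class at mucosal surfaces such as the airway, where IgA dimers and IgM pentamers are held together by the joining chain, encoded by Jchain, and carried across the epithelium by the polymeric immunoglobulin receptor, encoded by Pigr. In mouse most antibodies use a kappa light chain.

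Library totals were between 37606133 and 42345042 counts. Levels are given as CPM, counts per 1000000 counts of a library after TMM scaling. Ism1, the targeted gene, was measured at 78.9 ± 2.88 CPM (mean ± SD, n = 3) in the WT libraries and at 69.1 ± 5.72 CPM in those labelled ISM1-/-, or 87.6% of the WT mean. A gene count does not show which part of the transcript was read, and the structure of the allele is not given in the sources used here, so Ism1 does not check the labels. Markers of lung epithelium and endothelium were abundant in every library, with summed levels of the 12 genes between 43994 and 47090 CPM in WT and between 37402 and 40083 CPM in those labelled ISM1-/-. One library stood apart, since thymocyte genes summed to 40.3 CPM in WT replicate 3 and to between 0.743 and 1.27 CPM in the other libraries. Heart muscle markers were also unequal, at a sum of 1804 CPM in WT replicate 1 against 325.2 to 713.9 CPM elsewhere.

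In the libraries labelled ISM1-/-, 3 of the 10 genes were called higher: Igha by 4.56-fold, Igkc by 2.18-fold and Ighg1, which had few counts, by 6.70-fold. A gene was called when its Benjamini-Hochberg adjusted p over all 18689 genes tested was under 0.1 and its change at least 2-fold in edgeR's quasi-likelihood test. Of all genes tested, 0.284% were called higher by this rule. None of the 10 genes was called lower, and all 10 passed the filter on low counts. Ighg1 passed it only through ISM1-/- libraries, since no WT library reached 0.5 CPM for this gene. With 0.5 CPM required in at least 3 libraries, Ighg1 was not tested and 2 genes were called, Igha and Igkc. The most abundant heavy-chain gene, Ighm, reached 1.49-fold and was not called. All 10 log2 fold changes were above 0, as were those of 51.2% of all genes tested, and they lay between 0.26 for Ighg3 and 2.74 for Ighg1, with a median of 1.01 beside 0.0043 over all genes tested. For 7 of the 10 genes, every library labelled ISM1-/- lay above every WT library, an order that 9.33% of all genes tested also showed. In tissue RNA, more cells of a type and more RNA per cell cannot be told apart.

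**Figure D1:**
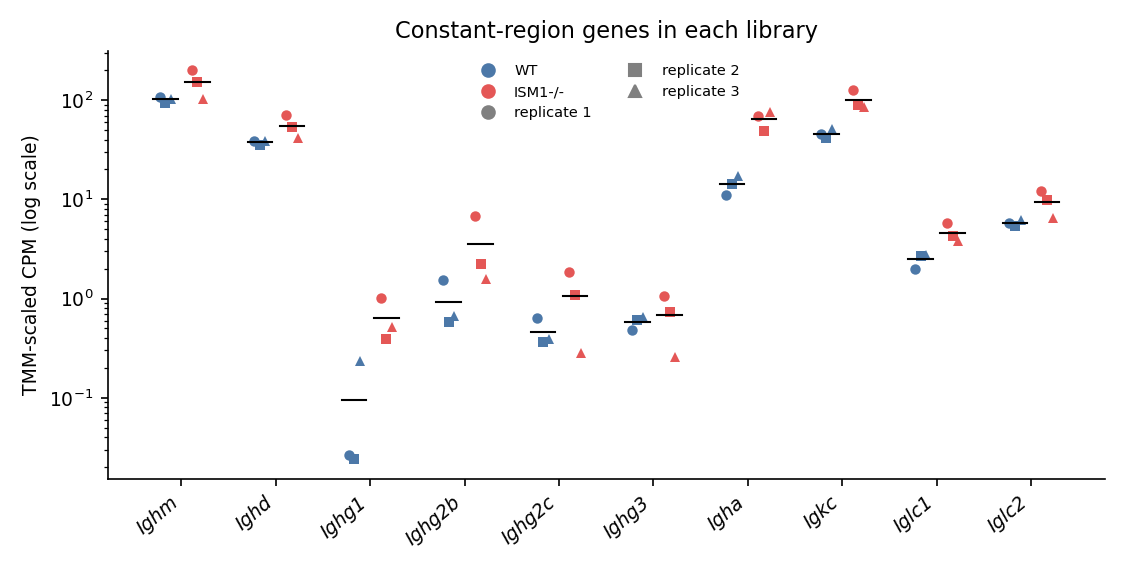
Level of each constant-region gene in the 6 libraries, as TMM-scaled CPM on a log axis, with WT in blue and ISM1-/- in red, a symbol for each replicate number and a bar at each mean. The red points of Igha, from 48.8 to 76.3 CPM, lie farthest above their blue points relative to the scatter, while replicate 3 of ISM1-/- lies among the WT points for Ighm and below them for Ighg2c and Ighg3.

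Igha, which encodes the heavy chain of IgA, was the one gene of the 10 that was called whichever library was left out. It lies on the minus strand at chr12:113254830-113260236 (GRCm38). Its first constant exon opens with the 90 bases below, at chr12:113260147-113260236, shown beside the opening of the first Ighm exon at chr12:113422641-113422730, since the balance between these 2 classes carries the main result. Both were read from GENCODE release M21 transcripts. The first exons of Igha and Ighm were 50.6% identical over their alignment, and no 150-base stretch of any of the 10 genes' transcripts recurred in another gene of that annotation, where 150 bases is the length of a read.
Igha: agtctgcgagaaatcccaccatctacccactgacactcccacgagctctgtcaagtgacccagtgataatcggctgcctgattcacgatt
Ighm: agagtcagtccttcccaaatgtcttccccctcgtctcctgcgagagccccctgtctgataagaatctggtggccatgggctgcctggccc

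In WT replicates 1 to 3, Igha received 413, 595 and 664 counts, against 2911, 1851 and 2977 counts in replicates 1 to 3 labelled ISM1-/-. Scaled to library size these were 11.0, 14.3 and 17.2 CPM against 68.5, 48.8 and 76.3 CPM. The groups were far apart, with the lowest ISM1-/- library at 2.84 times the highest WT library. The log2 fold change was 2.19 (SE 0.185), and at a Benjamini-Hochberg adjusted p of 0.00193 in edgeR Igha ranked 3 of 18689 genes by p. When any 1 of the 6 libraries was omitted Igha was still called, at log2 fold changes from 2.04 to 2.35.

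Jchain, which encodes the joining chain of secreted IgA and IgM, was called higher as well. Its counts were 155, 164 and 173 for WT compared with 935, 536 and 724 for ISM1-/-, a log2 fold change of 2.13 (SE 0.159; edgeR adjusted p = 0.00114). The ratio of Igha to Jchain counts was 2.66, 3.63 and 3.84 for WT compared with 3.11, 3.45 and 4.11 for ISM1-/-, and the groups overlapped. On the log2 scale this ratio differed between the groups by 0.08 (SE 0.201).

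Ighm, the heavy chain of IgM, and Ighd, the heavy chain of IgD, are the unswitched classes. Ighm lies at chr12:113418558-113422730 and Ighd at chr12:113406604-113416324, next to each other on the minus strand. The counts of Ighm were 4097, 3900 and 3970 for WT compared with 8524, 5738 and 3985 for ISM1-/-. The WT libraries were nearly level, whereas the ISM1-/- libraries spread 1.96-fold in CPM, and replicate 3 lay within the WT range. The mean was 102 ± 7.39 CPM in WT and 151 ± 49.2 CPM in ISM1-/-, a log2 fold change of 0.57 (SE 0.189) with an edgeR adjusted p of 0.166.

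Those of Ighd were 1470, 1476 and 1482 for WT compared with 3018, 2020 and 1628 for ISM1-/-. Here the groups did not overlap, although ISM1-/- replicate 3 was only 1.07 times the highest WT library in CPM. The log2 fold change of 0.56 (SE 0.156) had an edgeR adjusted p of 0.104. In DESeq2, another count test, the adjusted p was 0.00429 at a log2 fold change of 0.56, under the 2-fold minimum. Ighm and Ighd kept nearly the same balance, with 2.79, 2.64 and 2.68 Ighm counts per Ighd count in WT and 2.82, 2.84 and 2.45 in ISM1-/-.

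The 4 IgG genes were far less abundant. They resemble each other more than the other classes do, with first exons 78.4% to 88.3% identical, and Ighg2c takes in C57BL/6 mice the place that Ighg2a has in other strains. Their opening 90 bases are shown because these genes could be mistaken for one another in counting. Capitals mark the 29 positions at which the 4 are not all the same. The stretches lie on the minus strand at chr12:113330434-113330523 (Ighg1), chr12:113307844-113307933 (Ighg2b), chr12:113288843-113288932 (Ighg2c) and chr12:113361143-113361232 (Ighg3). Ighg2b and Ighg2c are the most similar pair here, with 7 differing bases.
Ighg1: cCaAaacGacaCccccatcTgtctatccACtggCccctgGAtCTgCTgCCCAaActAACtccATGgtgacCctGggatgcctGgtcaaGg
Ighg2b: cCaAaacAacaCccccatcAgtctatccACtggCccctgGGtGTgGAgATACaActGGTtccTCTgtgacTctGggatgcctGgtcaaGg
Ighg2c: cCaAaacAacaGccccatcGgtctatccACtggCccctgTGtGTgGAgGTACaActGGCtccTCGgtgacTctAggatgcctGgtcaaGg
Ighg3: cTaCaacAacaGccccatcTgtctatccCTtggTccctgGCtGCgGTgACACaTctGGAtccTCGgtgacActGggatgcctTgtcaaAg

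Ighg1, a class that interleukin-4 promotes in mouse, was counted 1, 1 and 9 times in WT and 43, 15 and 20 times in ISM1-/-. Although the groups did not overlap, these numbers are small. The summed counts, 78 against 11, correspond to a ratio of 6.996 after division by library totals (95% interval 3.70 to 14.6, counting error only). The edgeR log2 fold change was 2.74 (SE 0.695, adjusted p = 0.0766), and omission of 1 library at a time left it called in 2 of 6 cases, with values from 2.24 to 4.51. The highest of these came from leaving out WT replicate 3, which held 9 of the 11 WT counts and was also the library with thymocyte RNA. DESeq2 gave Ighg1 no adjusted p and called Igha and Igkc, or 2 of the 10 genes, where it called 0.615% of all genes tested.

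Ighg2b, which transforming growth factor beta promotes, gave 58, 24 and 26 counts in WT and 286, 85 and 62 in ISM1-/-. The ISM1-/- libraries ranged 4.23-fold in CPM, and the lowest of them barely exceeded WT replicate 1. Its log2 fold change of 1.93 (SE 0.552) had an edgeR adjusted p of 0.111 and was 1.05 without ISM1-/- replicate 1. Ighg2c, promoted by interferon gamma, had 15 to 24 counts in WT but 79, 41 and 11 in ISM1-/- (log2 fold change 1.23, SE 0.562, edgeR adjusted p = 0.328), and its value was 0.56 without ISM1-/- replicate 1. Ighg3 had 18 to 25 counts in WT and 45, 28 and 10 in ISM1-/- (log2 fold change 0.26, SE 0.445, edgeR adjusted p = 0.849), and its value became -0.21 without ISM1-/- replicate 1. Without the filter on low counts Ighg2b and Ighg2c were called in addition, and 0.917% of all genes were called by that fit. For Ighg2c and Ighg3 the groups overlapped, and ISM1-/- replicate 3 was the lowest of the 6 libraries.

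The remaining heavy-chain gene in the table, Ighe, encodes the heavy chain of IgE and was close to absent. It was counted 0 times in each WT library and 3, 3 and 0 times in the ISM1-/- libraries, while a count of 0 allows up to 3 counts, so that no difference was detectable at this depth. Ighe did not pass the filter on low counts.

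Among the light chains Igkc, at chr6:70726435-70726966 on the plus strand, took most counts. It received 1704, 1743 and 1966 counts in the WT group, compared with 5399, 3369 and 3307 in the ISM1-/- group, or 46.0 ± 4.48 against 100.2 ± 23.3 CPM. The lowest ISM1-/- library was 1.67 times the highest WT library. The log2 fold change of 1.12 (SE 0.143) had an edgeR adjusted p of 0.0104, and omission of 1 library at a time left Igkc called in 5 of 6 cases. In the remaining one, without ISM1-/- replicate 1, its log2 fold change of 0.92 was under the 2-fold minimum while the edgeR adjusted p was 0.0104. A noncoding gene on the same strand, Gm30211, overlaps Igkc and had only 36 to 80 counts.

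The lambda genes had smaller differences. Iglc1, at chr16:19061618-19062071, gave 75, 112 and 106 counts in WT and 244, 164 and 148 in ISM1-/- (log2 fold change 0.90, SE 0.199, edgeR adjusted p = 0.0488). This passed the adjusted p but not the 2-fold minimum. In this edgeR fit Iglc1 was the only one of the 10 genes to pass on p alone. Of all genes tested, 1.38% were higher at that adjusted p. An antisense gene, 2010309G21Rik, overlaps Iglc1 and had 16 to 46 counts. Because the strand setting of the counting is not given in the sources used here, its reads and those of Iglc1 may not be fully separate. Iglc2, at chr16:19198396-19200351, gave 216, 223 and 242 counts in WT and 517, 373 and 253 in ISM1-/- (log2 fold change 0.72, SE 0.199, edgeR adjusted p = 0.103, DESeq2 adjusted p = 0.00896). Iglc3, which is not one of the 10 genes, had 181, 171 and 183 counts in WT and 430, 328 and 178 in ISM1-/-. Its log2 fold change was 0.77 (SE 0.247, edgeR adjusted p = 0.151), and Iglc4 had at most 2 counts in a library.

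Iglc2 and Iglc3 are near copies, with first exons 94.3% identical. No 150-base stretch of either recurred in another gene of GENCODE release M21, and misassignment of reads between them was not tested. The stretches below lie on the minus strand at chr16:19061982-19062071 (Iglc1), chr16:19198763-19198852 (Iglc2) and chr16:19065592-19065681 (Iglc3). Capitals mark the 21 positions at which the 3 sequences are not all the same, and Iglc2 differs from Iglc3 at 5 of them.
Iglc1: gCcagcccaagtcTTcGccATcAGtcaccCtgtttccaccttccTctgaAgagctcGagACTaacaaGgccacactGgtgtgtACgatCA
Iglc2: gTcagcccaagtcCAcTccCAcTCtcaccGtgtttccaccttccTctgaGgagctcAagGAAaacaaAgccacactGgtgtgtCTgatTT
Iglc3: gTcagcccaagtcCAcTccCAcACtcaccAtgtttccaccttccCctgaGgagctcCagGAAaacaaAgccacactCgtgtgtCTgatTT

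**Figure D2:**
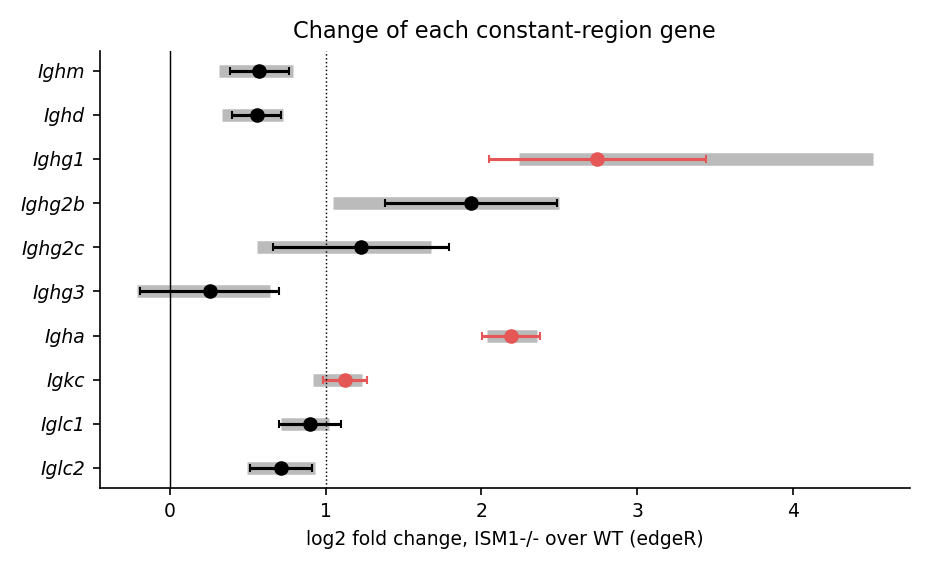
Log2 fold change of each gene, ISM1-/- over WT, from edgeR; points and bars give the estimate and its SE, grey bands the range over the 6 fits that leave out 1 library, red marks genes called, and the dotted line the 2-fold minimum. The band of Igha, from 2.04 to 2.35, is narrow and far from 0, whereas the band of Ighg3 crosses 0 and that of Ighg1 runs from 2.24 to 4.51.

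The ISM1-/- libraries did not differ from WT to the same degree. Replicate 1 was the highest of all 6 libraries for 9 of the 10 genes, the exception being Igha, for which replicate 3 was highest. Replicate 3 was the lowest ISM1-/- library for 8 of the 10. Leaving out replicate 3 raised the number of called genes to 6 of 10, which were Igha, Igkc, Ighg1, Ighg2b, Ighg2c and Iglc1, with 188 genes called over the whole table. Leaving out replicate 1 reduced it to Igha alone, with 31 genes called over the whole table. Replicate 1 also held 57 counts of Glycam1, a mucin-like glycoprotein of lymph node venules that had 0 counts in each other library. Its part in the levels of replicate 1 was not tested.

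To compare levels between genes of different length, FPKM values were used, which divide counts by gene length and library size. For Igha that length was 1820 bases, the mean of annotated transcripts of 1100 and 2540 bases. Another length would shift its FPKM, so its place in the order below rests on this mean. In WT, Igkc was highest at 86.7 ± 8.54 FPKM, followed by Ighm at 63.9 ± 4.72, Ighd at 28.9 ± 1.44, Iglc2 at 10.9 ± 0.852, Igha at 7.79 ± 1.71 and Iglc1 at 5.46 ± 0.929 FPKM. The ranges of Igha and Iglc1 overlapped, and each other step down to Iglc1 separated all 3 libraries of the neighbours. The IgG genes followed at 0.0532 to 0.506 FPKM, with Ighg2b, Ighg2c and Ighg3 overlapping in turn and Ighg1 lowest. In ISM1-/-, Igkc was at 187.8 ± 45.2 FPKM, Ighm at 94.7 ± 31.6, Ighd at 42.3 ± 11.7 and Igha at 35.3 ± 7.53 FPKM. Igha thus stood above Iglc2, at 17.8 ± 5.51 FPKM, with no overlap, and its range overlapped that of Ighd. The IgG genes, at 0.359 to 1.91 FPKM, lay below Iglc1 without overlap, and each overlapped its IgG neighbour in this order.

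As a share of the summed counts of the 7 heavy-chain genes, Igha made up 6.79%, 9.86% and 10.7% in WT and 19.5%, 18.9% and 34.2% in ISM1-/-. The precision of a single library is high, with 95% Wilson intervals of 6.19% to 7.45% in WT replicate 1 and 33.3% to 35.3% in ISM1-/- replicate 3, which cover counting error only. The mean share was 9.12% ± 2.07 against 24.2% ± 8.67, a difference of 15.1 percentage points (SE 5.15). It was 10.1 points without ISM1-/- replicate 3, and every ISM1-/- library lay above every WT library. A two-sided exact permutation test gave p = 0.1, the smallest value that 3 against 3 libraries allow, or 0.16 after Benjamini-Hochberg adjustment over 8 shares, so that no share could pass 0.05.

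The shares of Ighm and Ighd were lower, as shares that sum to 100% must move against each other. Ighm made up 67.4%, 64.6% and 64.1% in WT and 57.2%, 58.7% and 45.8% in ISM1-/-, a difference of -11.5 points (SE 4.18) that was -7.44 points without ISM1-/- replicate 3. Ighd made up 24.2% ± 0.258 in WT and 19.9% ± 1.02 in ISM1-/-, a difference of -4.31 points (SE 0.606). For both, as for Igha, the groups did not overlap and the exact permutation p was 0.1. The 4 IgG genes together were a minor fraction, at 1.66%, 1.08% and 1.21% in WT and 3.04%, 1.73% and 1.18% in ISM1-/-. The difference of 0.668 points (SE 0.578) was 0.140 points without ISM1-/- replicate 1. Within the IgG counts, Ighg3 held 17.8% to 38.5% in WT and 9.71% to 16.6% in ISM1-/-. Ighg2b held 57.4%, 36.9% and 34.7% in WT and 63.1%, 50.3% and 60.2% in ISM1-/-, and these groups overlapped.

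**Figure D3:**
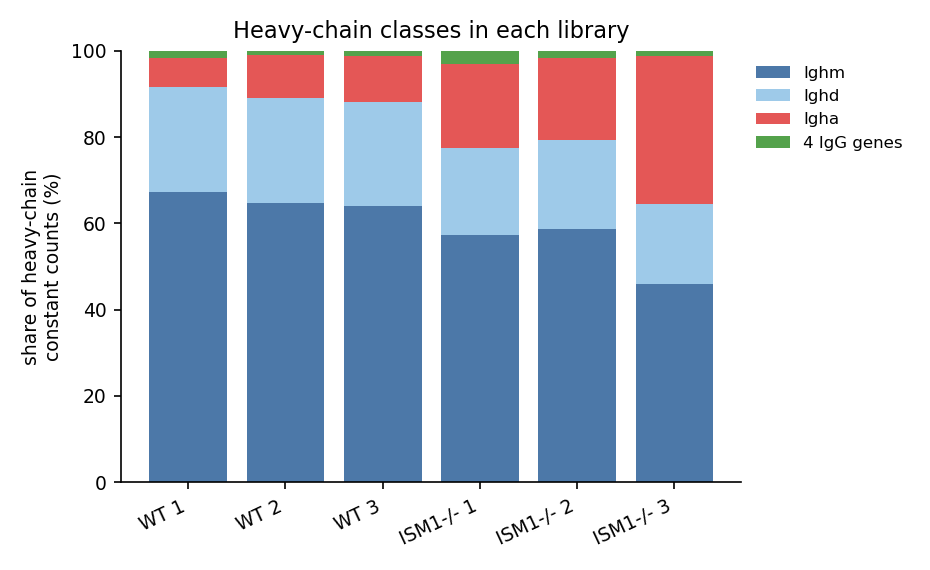
Share of each heavy-chain class in the summed counts of the 7 heavy-chain constant genes, in percent, for each library, with the 4 IgG genes added together. The Igha segment takes 6.79% to 10.7% in WT and 18.9% to 34.2% in ISM1-/-, and the IgG segment stays at or under 3.04%.

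Summed over the heavy-chain genes, the level was 155.6 ± 8.83 CPM in WT and 277 ± 66.0 CPM in ISM1-/-. Although Igha was a minor class in WT, it made up 41.5% of the added CPM, beside 40.8% for Ighm and 14.6% for Ighd. The balance between Igha and Ighm rested on single libraries, as shown by leaving out each in turn, which was added after seeing the data. Without ISM1-/- replicate 1 Igha made up 57.2% and Ighm 29.4%, and without ISM1-/- replicate 3 Igha made up 29.9% and Ighm 49.9%. Igkc, Iglc1 and Iglc2 summed to 54.3 ± 5.02 CPM in WT and 114.3 ± 26.8 CPM in ISM1-/-, and Igkc made up 90.3% of that difference. Iglc3 was left out of this sum and of the light-chain ratio and lambda share that follow. Per length, the ratio of light to heavy chains was 0.947, 0.999 and 1.09 in WT and 1.22, 1.18 and 1.29 in ISM1-/-, without overlap. This ratio depends on the gene lengths behind the FPKM values, for Igha a mean over transcripts of unlike length, and other lengths were not tried. Iglc1 and Iglc2 together took 14.6%, 16.1% and 15.0% of the summed counts of Igkc, Iglc1 and Iglc2 in WT and 12.4%, 13.7% and 10.8% in ISM1-/-. This difference of -2.94 points (SE 0.962) also had no overlap between groups (exact permutation p = 0.1).

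B cell genes were set beside the constant regions to show which classes moved with them. The 14 B cell markers include the antigen receptor subunits Cd79a and Cd79b and the surface protein Ms4a1. Of these markers 13 were higher in ISM1-/-, as were 51.2% of all genes tested. The edgeR adjusted p was under 0.1 for 5 of them, and 1.38% of all genes tested were higher at that adjusted p. None was called by the 2-fold rule, which called 0.567% of all genes tested in either direction. Their median log2 fold change was 0.58, and their sum was 211.5 to 235.8 CPM in WT against 410.7, 322.7 and 241.5 CPM in ISM1-/- replicates 1 to 3. Ebf1 was the one marker that was not higher, at a log2 fold change of -0.03. The order of the ISM1-/- libraries was that of Ighm, with replicate 3 close to WT.

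Relative to Cd79a in the same library, Ighm gave 4.92, 4.54 and 4.50 counts per Cd79a count in WT and 4.98, 4.43 and 4.25 in ISM1-/-. The log2 ratio differed by -0.03 for Ighm (SE 0.0798), -0.03 for Ighd (SE 0.0597) and 0.12 for Iglc2 (SE 0.0536), with overlapping groups for each. Igha gave 0.496, 0.693 and 0.752 counts per Cd79a count in WT and 1.70, 1.43 and 3.18 in ISM1-/-. This was a log2 difference of 1.63 (SE 0.395) without overlap. Igkc lay between these, with a log2 difference of 0.55 (SE 0.135) and no overlap. Against Ms4a1 the Igha difference was 1.56 (SE 0.328) and that of Ighm -0.11 (SE 0.132). Relative to Jchain the order was different, with log2 differences of 0.08 for Igha, -1.001 for Igkc (SE 0.141) and -1.58 for both Ighm (SE 0.295) and Ighd (SE 0.225). These ratios are descriptions and were given no p.

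**Figure D4:**
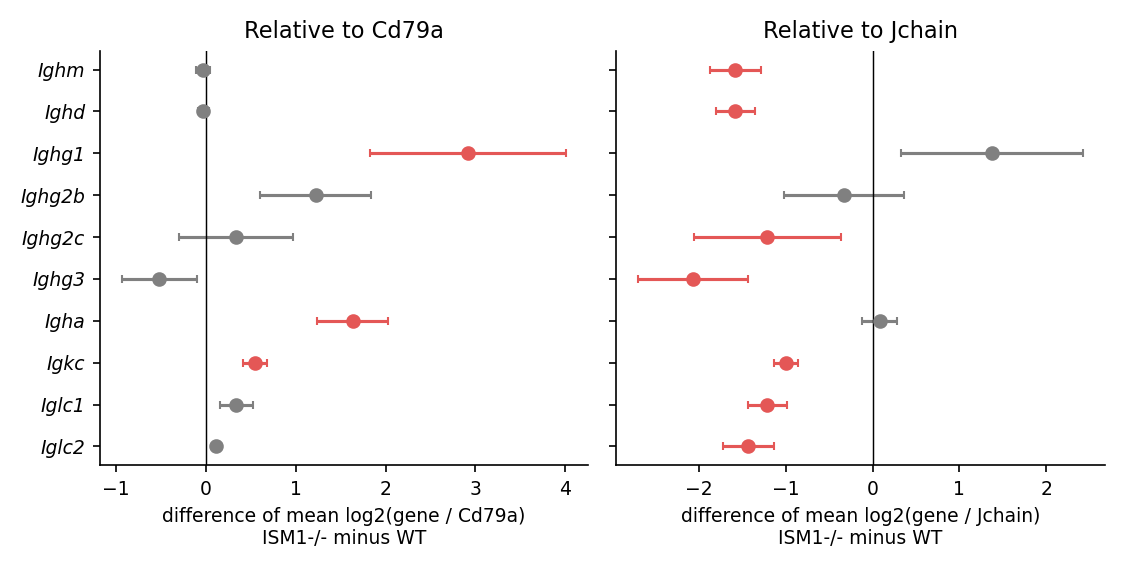
Difference in the mean log2 ratio of each gene to Cd79a (left, a B cell receptor subunit) and to Jchain (right, the joining chain), ISM1-/- minus WT, with bars for the SE and red where the groups do not overlap. Ighm, Ighd and Iglc2 lie near 0 on the left, at -0.03, -0.03 and 0.12, and Igha lies near 0 on the right, at 0.08.

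Besides Jchain, none of the listed plasma cell markers was called. Of 12 such genes 11 were tested, and their median log2 fold change was 0.29. Xbp1 and Prdm1, transcription factors of plasma cell development that lung cells also express, had log2 fold changes of 0.08 (edgeR adjusted p = 0.522) and 0.29 (edgeR adjusted p = 0.544). Mzb1, a chaperone for immunoglobulin assembly, was at 0.43 (edgeR adjusted p = 0.277). Tnfrsf17, a receptor of long-lived plasma cells, had only 3 to 10 counts in any library. These and the other uncalled genes named from here on were chosen after their values were seen.

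Of 12 tested genes of the machinery of class switching and hypermutation none was called, and the median log2 fold change was -0.00079. Among 15 cytokines and chemokines that guide switching, survival or homing of B cells, 9 were tested, and Cd40lg, the T cell ligand of CD40, was called. It had 15, 12 and 12 counts in WT and 39, 42 and 28 in ISM1-/- (log2 fold change 1.45, SE 0.314, edgeR adjusted p = 0.0465) and stayed called on omission of 1 library in 2 of 6 cases. No WT library reached 0.5 CPM for Cd40lg, which was thus tested only through the ISM1-/- libraries. Of the transforming growth factor beta genes, whose products promote the switch to IgA, Tgfb1 was at 0.10 (edgeR adjusted p = 0.773), Tgfb2 at 0.22 (edgeR adjusted p = 0.125) and Tgfb3 at -0.31 (edgeR adjusted p = 0.0416), a difference under 2-fold. Tnfsf13 and Tnfsf13b, the survival factors APRIL and BAFF, were at 0.22 and 0.07 (edgeR adjusted p = 0.492 and 0.722).

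Of 13 receptors of these factors none was called. Tnfrsf13c, the BAFF receptor, was at a log2 fold change of 0.70 (SE 0.177, edgeR adjusted p = 0.0746). Ccr10, a homing receptor of IgA plasma cells, had 8, 18 and 7 counts in WT and 30, 26 and 23 in ISM1-/- (log2 fold change 1.24, SE 0.383, edgeR adjusted p = 0.139). Its ligand Ccl28 had 80, 98 and 53 counts in WT and 34, 43 and 44 in ISM1-/- (log2 fold change -0.94, SE 0.263, edgeR adjusted p = 0.105). Neither the receptor nor the ligand passed the test. The groups did not overlap for either. As Ccr10 was, 9.33% of all genes tested were higher in ISM1-/- without overlap. The share of genes lower without overlap, as Ccl28 was, was not computed. No WT library reached 0.5 CPM for Ccr10, which was thus tested only through the ISM1-/- libraries. Of 10 tested genes for antibody transport and Fc receptors none was called. Pigr, which carries IgA and IgM across the epithelium, was at -0.01 (SE 0.0608, edgeR adjusted p = 0.972), and Fcgrt, the neonatal receptor that recycles IgG, was at -0.04 (SE 0.0565, edgeR adjusted p = 0.774).

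Markers of other cells also differed between the libraries. All 11 T cell markers were higher in ISM1-/-, as were 51.2% of all genes tested, and none was called. Their median log2 fold change was 0.38, with sums of 53.6 to 107.8 CPM in WT and 73.1 to 116 CPM in ISM1-/-. Over all genes tested, 0.284% were called higher and 0.567% were called in either direction. Of 8 tested neutrophil markers 4 were called higher, namely S100a8, S100a9, Cxcr2 and Ngp, and the summed level was 102.9 to 121.8 CPM in WT and 129.9 to 177.4 CPM in ISM1-/-. Of 8 adipocyte markers 7 (Adipoq, Plin1, Lep, Fabp4, Retn, Pck1 and Cfd) were called lower, with sums of 178.6 to 228.3 CPM in WT and 38.6 to 101.1 CPM in ISM1-/-. All 10 heart muscle markers were lower in ISM1-/-, where 51.2% of all genes tested were higher, and 1 of them, Myl7, was called. Their median log2 fold change was -1.01, and their sums overlapped, at 603.3 to 1804 CPM in WT and 325.2 to 646.2 CPM in ISM1-/-. Of 6 tested red blood cell markers none was called. None of the 12 lung markers, the 4 tested genes of lymphoid stroma and the 4 tested thymocyte genes was called, and no list had a gene at 0 in all libraries. The part of these cells in the constant-region levels was not tested. Leaving out WT replicate 3, the library with thymocyte RNA, left the calls of Igha, Igkc and Ighg1 in place.

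Over the 6 libraries, the level of Igha followed Igkc (Pearson r = 0.934 on log2 CPM), Ighg1 (r = 0.914) and Iglc1 (r = 0.906) more than Ighm (r = 0.597). Ighm followed Ighd (r = 0.987) and Iglc2 (r = 0.976). Among 15847 genes outside the immunoglobulin loci, the 5 with the pattern most like Igha were Cxcr6, a chemokine receptor of lymphocytes (r = 0.993), Plcb1, a phospholipase C (r = 0.992), Kcnh1, a potassium channel (r = 0.992), Npy1r, a neuropeptide Y receptor (r = 0.990), and Ctr9, a subunit of the PAF1 complex (r = 0.988). Those most like Ighm were Ptprcap, a partner of the leukocyte phosphatase CD45 (r = 0.998), Dock2, a guanine nucleotide exchange factor of blood cells (r = 0.996), Mtap (r = 0.993), Bcdin3d (r = 0.993) and Pip4k2b (r = 0.991). These coefficients describe 6 points that share 2 genotypes, and these genes were picked for having the highest of 15847 values.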

How the data were processed

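RNA-seq of poly-A-enriched, strand-specific 150-base read pairs was measured in 6 lung libraries. After trimming, the authors aligned the reads to GRCm38 (mm10) with STAR, and the deposited counts per gene are unnormalized whole numbers. The counting program, annotation and strand setting are not given in the sources used here. The authors also deposited FPKM values and a gene length column, the length being other than a measurement. A length was also worked back from the counts and FPKM of WT replicate 1. For 96.5% of 26807 genes it was within 1 base of the mean transcript length in GENCODE release M21. Each gene is counted as 1 value, so secreted and membrane forms of a heavy chain are not separated.

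The count test was run with edgeR 4.0.16 in R 4.3.3. A gene was tested when any library reached 0.5 CPM (18689 genes), libraries were scaled by TMM, and genotypes were compared by the quasi-likelihood test (glmQLFit, glmQLFTest) without covariates. A call required a Benjamini-Hochberg adjusted p under 0.1 and a 2-fold change. The SE of a log2 fold change was derived from its F statistic. Shares were compared by two-sided exact permutation tests over samples. Log2 CPM for correlations used a prior count of 2, over genes whose mean reached 1 CPM. In a chi-square comparison within each group, every pair of libraries differed beyond sampling noise. Same-numbered replicates did not deviate together (correlations of deviations -0.03, 0.03 and 0.04), so the numbers were not used as pairs. For Ccl19, which has 2 entries, the one with more counts was used.

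The genes and the 14 marker lists were chosen with earlier results of these data known. Genes named by rule were the 10 genes, Ism1, the other constant-region genes, each called gene of a list, and the 5 genes most like Igha and Ighm. Alternatives were DESeq2 1.42.0, RLE size factors, library totals, TMM without immunoglobulin genes, other filters and thresholds, a replicate block, FPKM shares, other denominators and the omission of each library. The tests were first tried on simulated counts. Values of 2 genes of the marker lists are not reported here.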

Additional observations from a re-analysis of the deposited data

How the results depend on the processing

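Igha kept its direction and its call in all 16 alternatives tried, and Igkc in 15 of 16, the exception being the omission of ISM1-/- replicate 1. Ighg1 was called in 8 of the 13 alternatives that gave it an adjusted p. Without a filter on low counts, 5 of the 10 genes were called (with Ighg2b and Ighg2c added) and 293 genes in all, against 3 of 10 and 106. The genes called in all were 51 at an adjusted p under 0.05, 882 with no fold minimum and 37 when only genes averaging over 2 CPM were tested. Omission of each library in turn gave 1 to 6 of the 10 genes and 31 to 188 genes in all, and a log2 fold change of Ighg3 from -0.21, reversed without ISM1-/- replicate 1, to 0.64. With DESeq2, 2 of the 10 genes (Igha and Igkc) were called. Ighd, Iglc1 and Iglc2 also had a DESeq2 adjusted p under 0.1, at changes under 2-fold. With a replicate block, 4 of the 10 genes were called, Ighg2b being added (log2 fold change 1.82, edgeR adjusted p = 0.00849), and 130 genes in all. The libraries of a block share only a number. The Igha share difference stayed at 15.1 points by construction, since a mean of paired differences equals the difference of group means. Among switched classes alone, by construction a denominator without Ighm and Ighd, Igha differed by 4.82 points (SE 4.35) and the groups overlapped. Other scalings left the same 3 genes called. The cause of the remaining changes was not tested. Depth limits Ighg1, Ighg2c and Ighg3, each with under 100 counts per library.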
